A study of Danio rerio with 9 samples.

Results

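The genes described here encode chromatin regulators, the enzymes and structural proteins that modify histones and DNA or move nucleosomes. They were picked by name, as every probe set whose single annotated gene symbol began with hdac, sirt, kdm, kmt, setd, smarc, smyd, dnmt3, tet1 to tet3, ezh, suz12, rbbp, chd, cbx, hmga, hmgb, hmgn, arid, brd, ep300, crebbp, kat, ing, mbd, h2af or h3f3, or was eed, with digits after chd, brd, kat and ing. Signal did not enter the choice. The rule found 158 probe sets of 113 genes, out of 15502 probe sets tested and 8793 genes with a probe set of 1 symbol. A single probe set measured 82 of the genes, and 2 to 4 probe sets measured each of the other 31. Histone variants were represented by h3f3d alone.

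RNA was taken from whole dissected eyes of wild type zebrafish at 3, 4 and 5 days post fertilisation (dpf), with 3 arrays at each age. The labels give no treatment or mutation, and age is the only difference between the groups that they state. The study's methods give the arrays at 3 and 5 dpf as biological replicates, while the labels of the arrays at 4 dpf give only a replicate number. Each value is a log2 signal of the Affymetrix Zebrafish Genome Array as deposited, so a difference of 1 is a 2-fold change.

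Chromatin regulators decide how tightly DNA is packed and which genes can be read. Acetyltransferases and deacetylases add and remove acetyl groups on histone tails, methyltransferases and demethylases do the same with methyl groups, and proteins with bromodomains or chromodomains bind the marked tails. Remodelling complexes of the SWI/SNF, ISWI and CHD types use ATP to slide or evict nucleosomes, and high mobility group proteins bind nucleosomes or bent DNA. In the developing vertebrate retina dividing progenitors give rise to neurons. The composition of several of these complexes is known to differ between dividing and postmitotic neural cells.

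Array medians lay between 5.70 and 5.79. The summed log2 signal of 16 photoreceptor genes was 16.97 to 17.16 at 3 dpf, 17.41 to 17.43 at 4 dpf and 17.06 to 17.19 at 5 dpf. Past 2-fold 3 of them were lower at 3 than at 5 dpf and 0 higher. The sum of 5 lens genes was 15.21 to 15.82, 15.73 to 15.88 and 15.64 to 16.16 at these ages. That of 4 pigment epithelium genes was 13.70 to 13.81, 14.32 to 14.60 and 14.20 to 14.78. Markers of tissues other than the eye were present too and moved with age. Past 2-fold 12 of 21 skeletal muscle genes and 6 of 11 cartilage genes were higher at 3 than at 5 dpf, and 5 of 19 pancreas and liver genes were lower. The summed signal of the muscle genes was 13.18 to 13.63 (log2) at 3 dpf, 10.42 to 10.84 at 4 dpf and 10.06 to 11.75 at 5 dpf. Among 35 proliferation genes 10 were higher at 3 dpf at any fold and 0 were lower, with summed log2 signals of 14.09 to 14.33 at 3 dpf and 13.21 to 13.83 at 5 dpf. Over all 8793 genes 3.37% were higher and 3.03% lower at 3 than at 5 dpf past 2-fold, and 7.74% and 5.57% at any fold. The part of these shifts in the values given next was not tested, and in whole eyes fewer cells of a type and less RNA per cell cannot be told apart.

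Between 3 and 5 dpf, 9 chromatin genes passed an adjusted p under 0.05 with at least a 2-fold change, and 128 of the 158 probe sets did not pass the adjusted limit at any fold. smarcad1a, ezh2 and hmga1a were higher at 3 dpf, and smarca1, hdac9b, kmt2ca, smarca2, kat5a and setd7 were lower. Those are 3 of 158 probe sets (1.9%) against 2.39% of all probe sets in the first direction, and 6 (3.8%) against 2.97% in the second, so the 2-fold shares lay near the background. At any fold, 19 probe sets of 17 genes (12%) were higher at 3 dpf against 5.63% of all, and 11 (6.96%) were lower against 5.7%. The test was limma's moderated test on the 6 arrays, with Benjamini-Hochberg adjustment over all 15502 probe sets.

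Chromatin probe sets had higher signals than the array as a whole. A mean signal of at least 5 was reached by 111 of the 158 probe sets (70.3%), against 56.0% of all. Among those 111, 17 (15.3%) were higher at 3 dpf at any fold against 8.87% of all probe sets of that signal, and 11 (9.91%) were lower against 8.93%. Past 2-fold 3 (2.7% against 3.45%) were higher and 6 (5.41% against 4.88%) lower. Over all signals the 3 dpf and 5 dpf arrays did not overlap for 40 probe sets with 3 dpf higher (25.3% against 13.6%) and for 46 with 3 dpf lower (29.1% against 41.8%). They did not overlap for 36 of the 111 with 3 dpf higher (32.4% against 21.5%) and for 21 with 3 dpf lower (18.9% against 21%). The counts at any fold depended on single arrays. The 19 became 10, 3 and 2 without replicate 1, 2 or 3 at 3 dpf and 9 without replicate 2 at 5 dpf, and the 11 became 6, 2 and 4 without replicate 1, 2 or 3 at 3 dpf. The 3 at 2-fold became 6 and 1 without replicate 1 or 3 at 3 dpf and 5 without replicate 3 at 5 dpf, and the 6 became 2 and 3 without replicate 2 or 3 at 3 dpf. In a setting without the array, 1 age has only 2 arrays, and the share of all probe sets called is not given. Of the 30 probe sets called at any fold, 4 kept the adjusted call without each of the 6 arrays and 3 lost it without any 1 of them, and the arrays that ended a call are named with each gene.

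**Figure D1:**
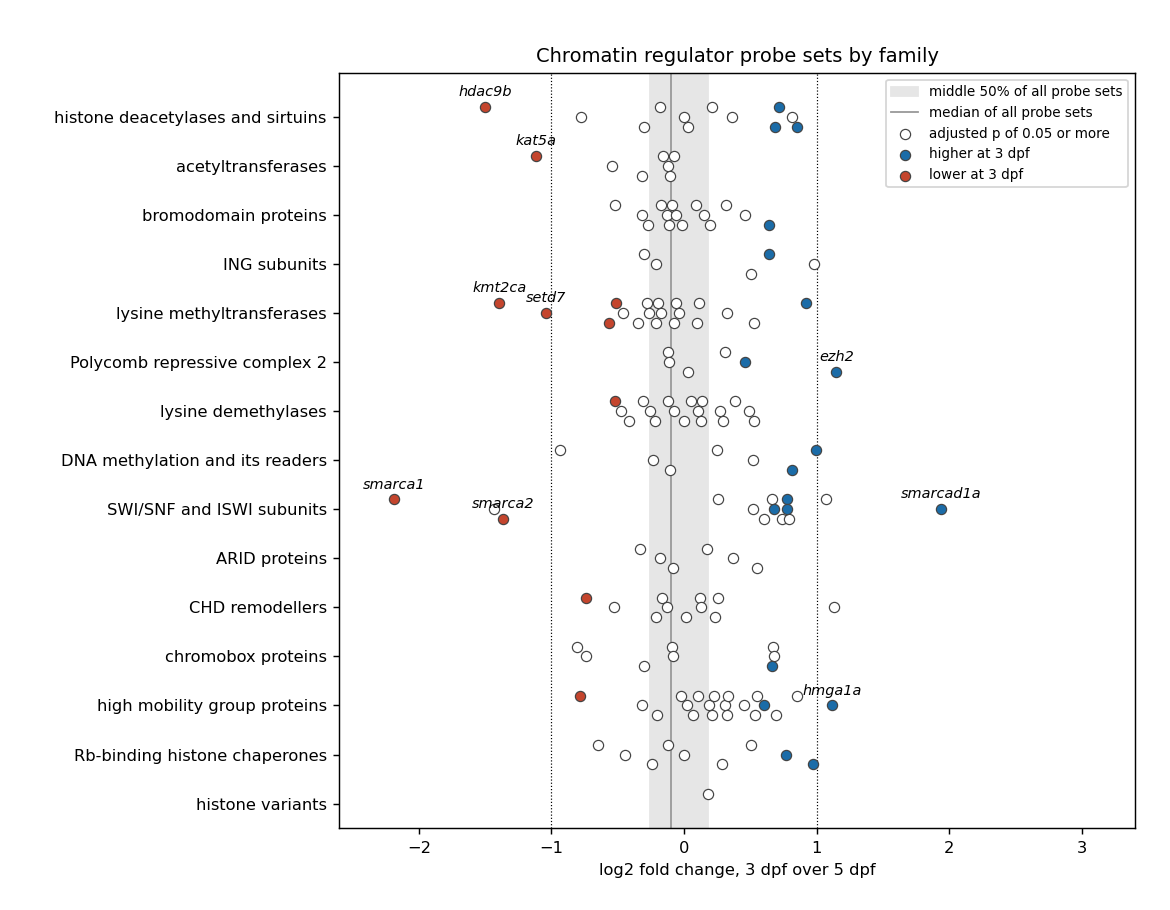
Log2 fold change (3 dpf over 5 dpf, x axis) of each of the 158 chromatin probe sets, one point per probe set, in rows by family. Filled points passed an adjusted p under 0.05, dotted lines mark a 2-fold change, and named genes passed both limits. The grey band holds the middle 50% of all 15502 probe sets. The row labelled SWI/SNF and ISWI holds the genes named smarc, grouped by name and not by complex. It reaches farthest in both directions, from -2.19 for smarca1 to 1.94 for smarcad1a.

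The family of ATPases and subunits named smarc held the largest change in each direction. Of its 14 probe sets 4 were higher and 2 lower at 3 dpf at any fold, where 5.63% and 5.7% of all probe sets were, and its median log2 fold change was 0.67, against 0.03 over all 158 chromatin probe sets and -0.10 over the whole array. A mean signal of at least 5 was reached by 85.7% of the 14. At that signal the median was 0.21 over chromatin probe sets and 0.02 over all. smarcad1a encodes a SNF2-family ATPase whose yeast relative Fun30 acts in heterochromatin and DNA end resection. Its log2 signal was 7.99, 8.13 and 8.12 in the 3 arrays at 3 dpf, 7.40, 7.52 and 7.53 at 4 dpf, and 5.76, 6.37 and 6.29 at 5 dpf. No array of one age overlapped another age. The log2 fold change of 3 over 5 dpf was 1.94 (adjusted p = 0.0067, standard error 0.18), a 3.84-fold fall with age, and it stayed past both limits without any 1 of the 6 arrays.

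smarca1, the ISWI ATPase also called SNF2L, went the other way. Its signal was 5.51, 4.55 and 4.54 at 3 dpf, 5.95, 5.85 and 6.03 at 4 dpf, and 7.23, 6.79 and 7.15 at 5 dpf. All 3 ages were separate, and the 3 dpf arrays were the most scattered, with replicate 1 close to 1 log2 unit above the others. The log2 fold change was -2.19 (adjusted p = 0.0154, standard error 0.30), a 4.56-fold rise from 3 to 5 dpf. It missed the adjusted limit without replicate 2 (adjusted p = 0.055) or replicate 3 (adjusted p = 0.0652) at 3 dpf, at nearly the same size of change, -2.03 in both cases.

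The other ISWI ATPase, smarca5 (SNF2H), had 3 probe sets, all with a positive log2 fold change. The probe set with the highest signal gave 10.59, 10.91 and 11.00 at 3 dpf and 9.22, 9.86 and 10.22 at 5 dpf. These ranges did not overlap, and the log2 fold change of 1.07 had an adjusted p of 0.0698. A dim probe set with a mean signal of 4.13 passed at 0.68 (adjusted p = 0.0415), but not without replicate 2 or 3 at 3 dpf or replicate 2 or 3 at 5 dpf (adjusted p up to 0.136). The remaining probe set, also dim with a mean of 4.70, had 0.66 and did not pass (adjusted p = 0.106). On the same 6 arrays, the 2 ISWI ATPases thus carried changes of opposite sign, although their difference was not tested.

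The catalytic ATPases of SWI/SNF are encoded by smarca2 (BRM) and smarca4a (BRG1). smarca2 rose with age. The less scattered of its probe sets gave 7.39, 7.03 and 7.04 at 3 dpf, 7.92, 7.74 and 7.90 at 4 dpf, and 8.60, 8.31 and 8.63 at 5 dpf. The 3 ages were again separate. The log2 fold change of -1.36 (adjusted p = 0.0087, standard error 0.14) is a 2.57-fold rise and kept its call without each of the 6 arrays. A second smarca2 probe set had a similar value, -1.43, with a standard error of 0.58 and an adjusted p of 0.144.

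smarca4a had 2 probe sets with values of 0.79 and 0.60, and neither passed (adjusted p = 0.293 and 0.155). Of the shared subunits, smarce1 (BAF57) fell from 11.30, 11.44 and 11.49 at 3 dpf to 10.74, 10.75 and 10.42 at 5 dpf, a log2 fold change of 0.78 (adjusted p = 0.0183) that did not pass without replicate 2 or 3 at 3 dpf (adjusted p up to 0.078). smarcb1b, one of a pair of genes for the SNF5 core subunit, fell by the same amount, 0.78, close to the limit (adjusted p = 0.0497), and passed in the 1 setting without replicate 2 at 5 dpf only (adjusted p up to 0.15 in the others). The values of smarcb1a (0.26), smarcc1a (0.74) and smarcd1 (0.52) did not pass. Of the 6 smarc genes with a called probe set, the ATPase genes smarca1 and smarca2 were lower at 3 dpf, and the ATPase genes smarcad1a and smarca5 and the subunit genes smarce1 and smarcb1b were higher.

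**Figure D2:**
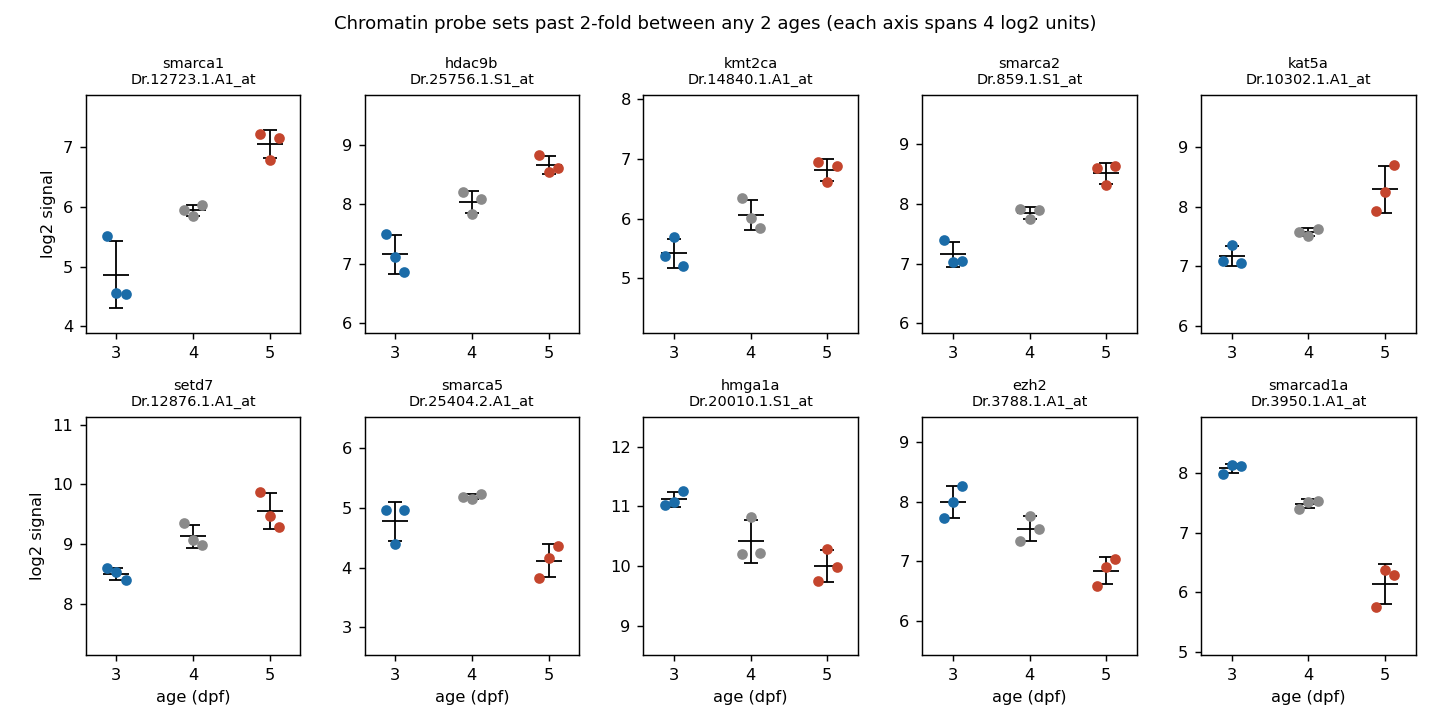
Log2 signal in each array (points) at 3, 4 and 5 dpf for the 10 chromatin probe sets past 2-fold between any pair of ages, ordered by their 3 over 5 dpf change. Horizontal ticks are means and bars the standard deviation of 3 arrays. Every panel spans 4 log2 units, so slopes can be compared, and smarca1 and smarcad1a are the steepest.

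Histone deacetylases remove acetyl groups, and the sirtuins are their NAD-dependent relatives. Of 12 probe sets in this family 3 were higher and 1 lower at 3 dpf at any fold (5.63% and 5.7% of all probe sets). The 3 that fell with age were class I enzymes. hdac1, the catalytic subunit of several corepressor complexes, had signals of 12.04, 12.18 and 11.97 at 3 dpf, 11.42, 11.78 and 11.64 at 4 dpf, and 11.19, 11.43 and 11.52 at 5 dpf. Its log2 fold change was 0.69 (adjusted p = 0.0223, standard error 0.11). hdac3, the enzyme of the NCoR complex, and hdac8 had log2 fold changes of 0.71 (adjusted p = 0.04) and 0.85 (adjusted p = 0.0276), and the 3 dpf arrays of both lay above all 5 dpf arrays. A second hdac3 probe set, dim at a mean of 2.86, had 0.03 (adjusted p = 0.778). The difference between the hdac3 probe sets, 0.68, did not pass (adjusted p = 0.0726). Without any 1 array at 3 dpf or replicate 2 at 5 dpf the calls of all 3 genes ended, and those of hdac3 and hdac8 also without replicate 3 at 5 dpf, with adjusted p up to 0.0787 for hdac1, 0.113 for hdac3 and 0.0922 for hdac8.

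hdac9b, a class IIa deacetylase of the kind that binds MEF2 factors, rose over the same days. The signals were 7.50, 7.12 and 6.86 at 3 dpf, 8.20, 7.83 and 8.09 at 4 dpf, and 8.82, 8.54 and 8.61 at 5 dpf. Each age lay above the one before it without overlap. The log2 fold change was -1.50 (adjusted p = 0.0121, standard error 0.18), a 2.82-fold rise, and the adjusted p reached 0.05 without replicate 2 at 3 dpf. Another class IIa gene, hdac4, was dim (mean 3.04) and did not pass (-0.77, adjusted p = 0.23). sirt2, sirt3 and sirt6 did not pass, with values of 0.00, -0.18 and 0.36.

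Among the acetyltransferases, all 7 probe sets had a negative log2 fold change, as had 64.4% of all probe sets, and 1 passed, against 5.7% of all lower at any fold. Under quantile normalization 6 of the 7 were negative, against 52.3% of all. These shares cover all signals, while 85.7% of the 7 had a mean of at least 5, against 56% of all. kat5a encodes TIP60, the enzyme of the NuA4 complex. It had 7.10, 7.36 and 7.06 at 3 dpf, 7.59, 7.51 and 7.63 at 4 dpf, and 7.93, 8.24 and 8.70 at 5 dpf, without overlap between ages. The change of -1.12 (adjusted p = 0.0335, standard error 0.22), a 2.17-fold rise, missed the adjusted limit without replicate 1 (adjusted p = 0.0967), 2 (adjusted p = 0.079) or 3 (adjusted p = 0.119) at 3 dpf or replicate 2 at 5 dpf (adjusted p = 0.0864), and was -0.91, under 2-fold, without replicate 3 at 5 dpf. It had an adjusted p of 0.0797 with signals under 4 set to 4. The CBP genes crebbpa (-0.54, adjusted p = 0.133) and crebbpb (-0.11, adjusted p = 0.721), and kat8 (-0.31, adjusted p = 0.223), did not pass.

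Bromodomain proteins read acetylated histones. Of 15 bromodomain probe sets 1 was higher at 3 dpf at any fold and 0 were lower (5.63% and 5.7% of all probe sets). It was brd8b, a subunit of the same NuA4 complex, with 9.30, 9.30 and 9.37 at 3 dpf against 8.64, 8.85 and 8.56 at 5 dpf. Its log2 fold change of 0.64 (adjusted p = 0.0164) did not pass without replicate 2 or 3 at 3 dpf (adjusted p up to 0.0734). The BET genes brd2a, brd2b, brd3a and brd3b had 11 of the probe sets, with values from -0.52 to 0.46 and none past the limit. Of the ING subunits, PHD-finger proteins that bring acetyltransferase or deacetylase complexes to methylated histone H3, ing4 fell from 11.67, 11.50 and 11.60 to 10.94, 11.10 and 10.82 (0.64, adjusted p = 0.0185), and did not pass without any 1 array at 3 dpf (adjusted p up to 0.0794). ing5b (0.98, adjusted p = 0.0779), ing2 (0.50, adjusted p = 0.0658) and ing3 (-0.30, adjusted p = 0.159) did not pass.

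Of 19 lysine methyltransferase probe sets 4 were lower and 1 higher at 3 dpf at any fold (5.7% and 5.63% of all probe sets). kmt2ca encodes an MLL3-type enzyme that places the H3 methyl mark of enhancers. Its signal was 5.38, 5.68 and 5.20 at 3 dpf, 6.34, 6.02 and 5.84 at 4 dpf, and 6.95, 6.61 and 6.87 at 5 dpf. Ages did not overlap, and the log2 fold change of -1.39 (adjusted p = 0.0102, standard error 0.16), a 2.63-fold rise, kept its call without each of the 6 arrays. setd7, which monomethylates histone H3 and many other proteins, had 8.59, 8.52 and 8.39 at 3 dpf and 9.88, 9.48 and 9.29 at 5 dpf. Its change of -1.04 (adjusted p = 0.0209, standard error 0.16) lay just past 2-fold. It missed the adjusted limit without replicate 1 (adjusted p = 0.055), 2 (adjusted p = 0.073) or 3 (adjusted p = 0.085) at 3 dpf or replicate 2 at 5 dpf (adjusted p = 0.0588), and was -0.88, under 2-fold, without replicate 1 at 5 dpf. With signals under 4 set to 4 its adjusted p was 0.0547.

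Smaller rises with age were found for kmt2e (-0.57, adjusted p = 0.0429), an MLL5-type protein, and for setdb1a (-0.51, adjusted p = 0.0238), an enzyme of the silencing H3 mark that HP1 proteins bind. smyd2a, a SET and MYND enzyme that methylates histone and other proteins, was the one higher at 3 dpf: 8.18, 8.52 and 8.60 against 7.57, 7.23 and 7.75 at 5 dpf (0.92, adjusted p = 0.0338). The call of kmt2e ended without any 1 of the 6 arrays (adjusted p up to 0.128), that of setdb1a without any of them but replicate 3 at 5 dpf (adjusted p up to 0.0774), and that of smyd2a without replicate 2 or 3 at 3 dpf or replicate 1 or 2 at 5 dpf (adjusted p up to 0.116). kmt5aa, which monomethylates histone H4 and acts in the cell cycle, had a value of 0.32 and did not pass (adjusted p = 0.159).

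The Polycomb repressive complex 2 places the H3 mark of silenced developmental genes. Its enzyme ezh2 fell: 7.73, 7.99 and 8.26 at 3 dpf, 7.35, 7.76 and 7.54 at 4 dpf, and 6.59, 6.90 and 7.03 at 5 dpf. The 3 dpf and 5 dpf arrays did not overlap. The log2 fold change was 1.15 (adjusted p = 0.0207, standard error 0.18), a 2.22-fold fall. It missed the adjusted limit without replicate 2 (adjusted p = 0.073) or 3 (adjusted p = 0.0689) at 3 dpf, without replicate 2 at 5 dpf (adjusted p = 0.0597) and with signals under 4 set to 4 (adjusted p = 0.0547). A dim ezh2 probe set, with a mean of 4.04, was also called higher at 3 dpf (0.46, adjusted p = 0.0112). Its mean was 4.40 at 3 dpf, 3.78 at 4 dpf and 3.94 at 5 dpf. That call ended without replicate 2 or 3 at 3 dpf (adjusted p up to 0.0587). Of the 6 probe sets of this complex 2 were higher and 0 lower at any fold (5.63% and 5.7% of all). The partners eed (0.31, adjusted p = 0.359), suz12b (0.03, adjusted p = 0.819) and suz12a (-0.11, adjusted p = 0.246) did not pass.

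Of 18 lysine demethylase probe sets 1 was lower at 3 dpf at any fold and 0 were higher (5.7% and 5.63% of all probe sets). This was kdm5ba, an eraser of the H3 mark of active promoters. It rose from 9.79, 9.61 and 9.89 to 10.27, 10.16 and 10.43 (-0.52, adjusted p = 0.0421) and lost its call in each of the 6 settings with an array left out (adjusted p from 0.064 to 0.116). The family's values ran from -0.52 to 0.53. kdm1a (LSD1), a subunit of the CoREST complex, had 0.39 and did not pass (adjusted p = 0.216).

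Among 7 probe sets of DNA methylation and its readers, 2 were higher at 3 dpf at any fold and 0 were lower (5.63% and 5.7% of all). They belonged to dnmt3ba and mbd3b. dnmt3ba, a de novo DNA methyltransferase, gave 8.42, 8.47 and 8.78 at 3 dpf, 8.58, 8.13 and 8.11 at 4 dpf, and 7.70, 7.47 and 7.52 at 5 dpf. The first 2 ages overlapped and the last lay below both. Its log2 fold change of 1.00 (adjusted p = 0.0126, standard error 0.12), just under the 2-fold limit, kept its adjusted call without each of the 6 arrays. mbd3b, a subunit of the NuRD deacetylase and remodelling complex, fell from 11.81, 11.27 and 11.65 to 10.68, 10.64 and 10.95 (0.82, adjusted p = 0.0398), and passed in the 1 setting without replicate 2 at 3 dpf only (adjusted p up to 0.132 in the others). mbd2, which takes the same place in NuRD and binds methylated DNA, had the opposite sign, -0.94, and missed the limit (adjusted p = 0.0579).

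The CHD remodellers had 11 probe sets and 1 call at any fold, chd2, lower at 3 dpf as were 5.7% of all probe sets. A probe set of chd2 rose from 7.77, 7.64 and 7.87 to 8.62, 8.27 and 8.61 (-0.74, adjusted p = 0.0238) and did not pass without any 1 of the arrays but replicate 2 at 5 dpf (adjusted p up to 0.0837). Its other probe set gave -0.53 (adjusted p = 0.0821). chd4a, the NuRD ATPase, had a log2 fold change of 1.13 with widely spread arrays, 8.71, 9.19 and 9.65 at 3 dpf and 7.61, 8.05 and 8.49 at 5 dpf, and did not pass (adjusted p = 0.0843). Of 8 chromobox probe sets 1 was called at any fold, higher at 3 dpf as were 5.63% of all. This probe set, of cbx5 (HP1 alpha), fell from 11.47, 11.19 and 11.40 to 10.74, 10.51 and 10.82 (0.67, adjusted p = 0.0275) and did not pass without any 1 of the arrays but replicate 3 at 5 dpf (adjusted p up to 0.106). cbx8a (-0.81, adjusted p = 0.0544) and cbx2 (-0.30, adjusted p = 0.0989), subunits of Polycomb repressive complex 1, missed the limit. None of the 6 ARID probe sets passed, with arid4a at -0.33 (adjusted p = 0.0724).

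The high mobility group proteins had 20 probe sets, of which 16 had a positive log2 fold change, against 35.6% of all probe sets (17 against 47.7% under quantile normalization, and 15 against 34% under median centring). The 35.6% is not a share at like signal, since 95% of this family had a mean of at least 5, against 56% of all. The median log2 fold change was 0.27 in the family. Over all probe sets it was 0.02 at a mean of at least 5 and -0.12 under 5. At any fold 2 were higher and 1 was lower at 3 dpf (5.63% and 5.7% of all). hmga1a encodes an AT-hook protein known from proliferating and undifferentiated cells. The probe set with the largest change gave 11.02, 11.07 and 11.26 at 3 dpf, 10.20, 10.83 and 10.21 at 4 dpf, and 9.74, 10.28 and 9.99 at 5 dpf. The 3 dpf arrays lay above all others, while 4 and 5 dpf overlapped. The log2 fold change was 1.11 (adjusted p = 0.0157, standard error 0.16), a 2.16-fold fall, and the adjusted p was 0.0572 without replicate 2 and 0.069 without replicate 3 at 3 dpf. Without replicate 1 at 5 dpf the change was 0.98, under 2-fold.

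hmgn3, a nucleosome-binding protein, rose in the same arrays. It had 12.41, 12.56 and 12.71 at 3 dpf, 13.28, 13.14 and 12.98 at 4 dpf, and 13.39, 13.24 and 13.41 at 5 dpf. Both later ages lay above 3 dpf, and the log2 fold change was -0.78 (adjusted p = 0.0132, standard error 0.10), with an adjusted p of 0.0542 without replicate 2 at 3 dpf. The relatives hmgn1a (14.60, 14.35 and 14.46 at 3 dpf, 14.55, 14.33 and 14.32 at 5 dpf) and hmgn2 did not pass, at 0.07 (adjusted p = 0.625) and 0.46 (adjusted p = 0.0909). The DNA-bending hmgb genes, hmgb1a to hmgb3b, had 9 probe sets with values from -0.02 to 0.85 and none past the limit.

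The genes named rbbp share a history of isolation with the retinoblastoma protein and differ in function. rbbp4 and rbbp7 encode the histone-binding WD40 proteins shared by NuRD, Polycomb repressive complex 2 and the chromatin assembly factor, and both fell. rbbp4 had 10.09, 10.18 and 10.20 at 3 dpf, 9.95, 9.94 and 9.94 at 4 dpf, and 9.09, 9.02 and 9.43 at 5 dpf. The 3 ages were separate, with the 4 dpf arrays nearest to those at 3 dpf. Its log2 fold change was 0.97 (adjusted p = 0.0131, standard error 0.12), and that of rbbp7 was 0.77 (adjusted p = 0.0257). The call of rbbp4 ended without replicate 2 or 3 at 3 dpf (adjusted p up to 0.0637), and that of rbbp7 without any 1 array but replicate 3 at 5 dpf (adjusted p up to 0.09). rbbp5 of the H3 methyltransferase complexes, rbbp6, rbbp8, rbbp8l and rbbp9 did not pass, with values from -0.65 to 0.50. h3f3d, a gene of the replacement histone H3.3, had 13.52, 13.31 and 13.31 at 3 dpf and 13.27, 13.20 and 13.13 at 5 dpf (0.18, adjusted p = 0.184).

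Of the 30 calls at any fold, 16 ended with signals under 4 set to 4. Beside kat5a, ezh2 and setd7 these were the probe sets of hdac1 (adjusted p = 0.0518), hdac3 (adjusted p = 0.0849), hdac8 (adjusted p = 0.0657), kmt2e (adjusted p = 0.0843), smyd2a (adjusted p = 0.0785), kdm5ba (adjusted p = 0.0803), mbd3b (adjusted p = 0.0871), smarca5 (adjusted p = 0.0915), smarcb1b (adjusted p = 0.103), chd2 (adjusted p = 0.057), cbx5 (adjusted p = 0.0612) and rbbp7 (adjusted p = 0.0601) and the second probe set of hmga1a (adjusted p = 0.0601). Among these 16, only the dim smarca5 probe set, with a mean of 4.13, had signals under 4. Its log2 fold change went from 0.68 to 0.49. The other log2 fold changes of the 16 were unchanged. For those only the spread estimate and the adjustment, which draw on all probe sets, could differ. Quantile normalization ended the calls of kdm5ba (adjusted p = 0.0575), mbd3b (adjusted p = 0.0627) and smarcb1b (adjusted p = 0.051), median centring that of the dim smarca5 probe set (adjusted p = 0.0545), trend and robust settings that of setdb1a (adjusted p = 0.0532), and a mean signal of at least 5 that of kdm5ba (adjusted p = 0.056).

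The arrays at 4 dpf divide these changes into 2 intervals. In a fit to all 9 arrays, 1 chromatin probe set was past 2-fold between 3 and 4 dpf, smarca1, lower at 3 dpf by 1.07 on the log2 scale (adjusted p = 0.0378, 0.633% against 1.62% of all probe sets). In the other direction the count was 0, against 1.66% of all probe sets. No chromatin probe set reached 2-fold there, whatever its p, and the largest value was 0.80, for smarca4a. At any fold 7 probe sets (4.43%, background 6.19%) were higher and 12 (7.59%, background 7.21%) lower at 3 than at 4 dpf. Between 4 and 5 dpf, smarcad1a (1.34, adjusted p = 0.0053) and a dim smarca5 probe set (1.08, adjusted p = 0.018) were higher at 4 dpf past 2-fold, 1.27% against 0.174%. This smarca5 probe set, with a mean of 4.70, is not the one called between 3 and 5 dpf. smarca1 was lower at 4 dpf (-1.11, adjusted p = 0.045), 0.633% against 0.264%. At any fold 8 (5.06%) were higher at 4 dpf against 2.48% of all and 9 (5.7%) were lower against 5.59%. Arrays of 3 and 4 dpf did not overlap for 34 probe sets with 3 dpf higher (21.5% against 17.6%) and 29 lower (18.4% against 29.2%), and those of 4 and 5 dpf for 26 with 4 dpf higher (16.5% against 10.1%) and 32 lower (20.3% against 23.5%). Without replicate 2 or 3 at 3 dpf, or any 1 array at 4 dpf, the count of 1 between 3 and 4 dpf became 0, and it became 2 without replicate 1 at 3 dpf. Between 4 and 5 dpf the count of 1 lower became 0 without any 1 array of either age, and the count of 2 higher became 1 without any 1 array at 4 dpf or replicate 1 at 5 dpf.

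All 3 ages were separate and in order for 16 chromatin probe sets. The 8 that stepped down were smarcad1a, rbbp4, rbbp7, smarce1, mbd3a, arid2, hmgn2 and ing4 (5.06% against 2.76% of all). The other arid2 probe set, with a mean of 4.97, overlapped between ages. The 8 that stepped up were smarca1, smarca2, hdac9b, kmt2ca, kat5a, setdb1a, hdac11 and a second ing4 probe set (5.06% against 5.91%). The last 2 were dim, with means of 3.15 and 3.56. For rbbp4, dnmt3ba and smarcad1a the log2 fold changes of 3 over 4 dpf were 0.21, 0.28 and 0.60, and those of 4 over 5 dpf 0.76, 0.71 and 1.34. For hmgn3 and kmt2e they were -0.57 and -0.55 in the first interval and -0.21 and -0.02 in the second. In none of these genes did the 2 intervals differ by limma. The adjusted p was 0.15 for rbbp4, 0.509 for dnmt3ba, 0.18 for smarcad1a, 0.375 for hmgn3 and 0.265 for kmt2e. The test of the difference between the 2 intervals passed for 7 chromatin probe sets, 6 with the first value above the second (3.8% against 4.19%) and 1 below (0.633% against 1.81%). They were dim probe sets of brd3a, brd3b, setd4, ezh2, kdm6al and rbbp8l, and of smarca5 (mean 4.70) in the other direction, each with a mean signal under 5. The 7 became 4 and 2 without replicate 2 or 3 at 3 dpf, 1, 0 and 1 without replicate 1, 2 or 3 at 4 dpf, and 4 and 3 without replicate 1 or 2 at 5 dpf. Restricted to a mean of at least 5 the count was 0 by limma.

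**Figure D3:**
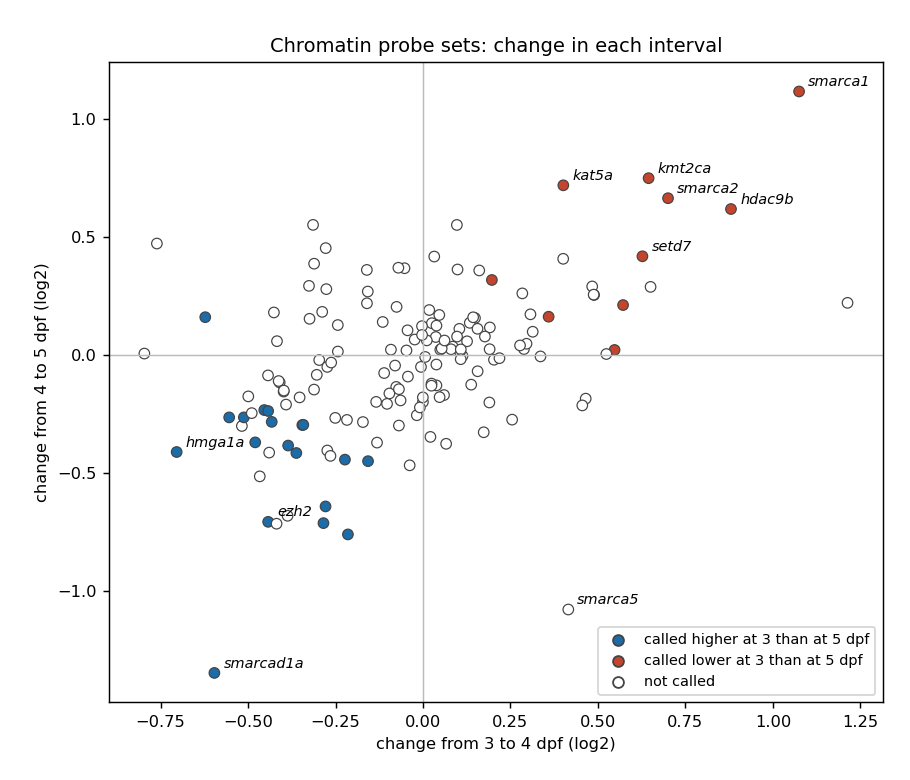
Change in log2 signal from 3 to 4 dpf (x axis) and from 4 to 5 dpf (y axis) for each of the 158 chromatin probe sets, from the fit to 9 arrays. Filled points passed the 3 against 5 dpf test at any fold. smarca1, smarca2, hdac9b, kmt2ca, kat5a and setd7 rise in both intervals, and smarcad1a falls by 0.60 and then by 1.34. The smarca5 probe set named here, with a mean of 4.70, was not called between 3 and 5 dpf. Its log2 fold change of 3 over 4 dpf, -0.42, did not pass (adjusted p = 0.189), and it then falls to 5 dpf.

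Genes with several probe sets show how far one measurement can stand for the gene. Of 63 pairs of probe sets of one chromatin gene, 7 differed in their 3 over 5 dpf change (11.1% against 4.95% of 2608 pairs on the array). They belonged to dnmt3ba, ezh2, ing4, hmga1a and setdb1a. For dnmt3ba the probe set at 1.00 had a mean signal of 8.13 and its partner at -0.10 a mean of 2.66, a difference of -1.10 (adjusted p = 0.0074). For ezh2 the 3 probe sets had values of 1.15, 0.46 and -0.12 at mean signals of 7.46, 4.04 and 2.96.

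The partner that did not move was dim in each of these genes but hmga1a. There the probe set at 1.11 (mean 10.51) and one at 0.61 (mean 13.24, adjusted p = 0.0277, and 0.0522 to 0.0769 without any 1 array) both differed from another at -0.21 (mean 6.47), with an adjusted p of 0.032 for each pair, and one more lay at 0.19. ing4 had 0.64 in one probe set (mean 11.26) and -0.21 in the other (mean 3.56). The 7 pairs became 3, 1 and 1 without replicate 1, 2 or 3 at 3 dpf and 4, 2 and 1 without replicate 1, 2 or 3 at 5 dpf.

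The zebrafish genome holds many genes in a and b copies from the duplication at the base of the teleost fishes. Of 15 such chromatin pairs measured, 2 differed in their change with age (13.3% against 14.6% of 664 pairs). brd8a had 5.06, 5.42 and 5.16 at 3 dpf and 5.34, 5.57 and 5.25 at 5 dpf, a value of -0.17, while brd8b fell, a difference of -0.82 (adjusted p = 0.0198, standard error 0.15). setdb1a rose while setdb1b had 6.98, 7.19 and 7.11 at 3 dpf and 6.28, 6.45 and 6.97 at 5 dpf, a value of 0.53, and the difference was -1.04 (adjusted p = 0.0393, standard error 0.24). The 2 became 0 without replicate 1 or 3 at 3 dpf or replicate 2 at 5 dpf, and 1 without replicate 2 at 3 dpf.

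Further copy pairs missed the limit with sizable differences, 0.88 for chd4a over chd4b (adjusted p = 0.0566, standard error 0.23) and -0.76 for cbx1a over cbx1b (adjusted p = 0.0586, standard error 0.20). Others lay close together. hmgb1a and hmgb1b had 0.31 and 0.33, a difference of -0.02 (standard error 0.15), and hmgb2a and hmgb2b had 0.85 and 0.69, a difference of 0.16 (standard error 0.15).

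**Figure D4:**
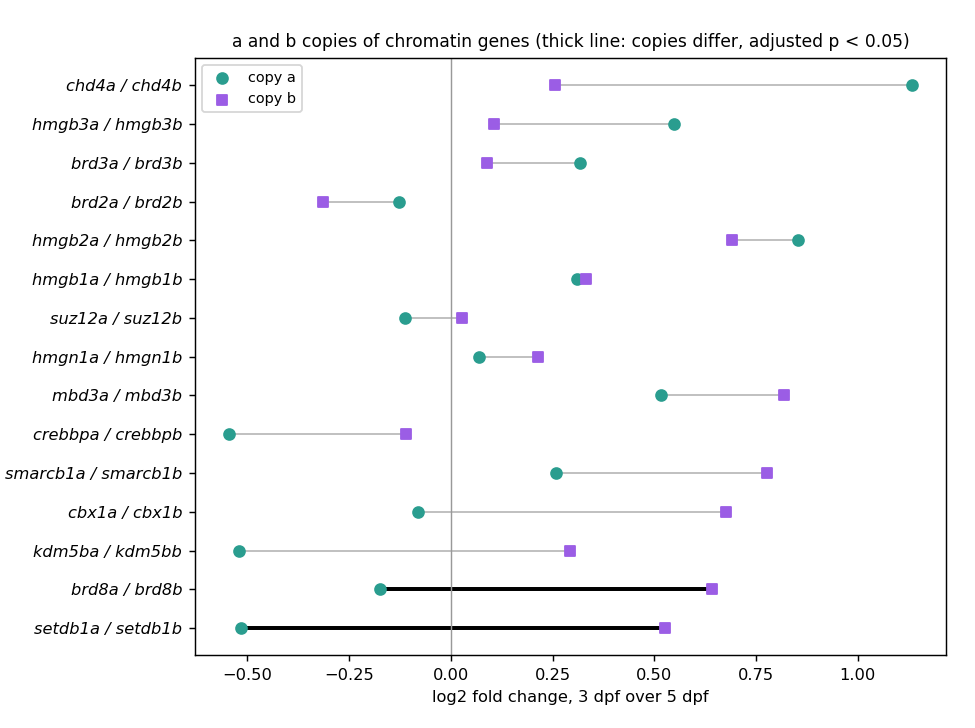
Log2 fold change (3 dpf over 5 dpf) of the a copy (circle) and b copy (square) of 15 chromatin genes, each measured by its probe set of highest mean signal and ordered by the difference. Thick black lines mark the copies that differ at an adjusted p under 0.05, brd8a and brd8b (-0.17 and 0.64) and setdb1a and setdb1b (-0.51 and 0.53).

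Some chromatin probe sets differed by replicate number at every age. In 47 of 158 (29.7%), from 39 genes, replicate 1 had the lowest of the 3 signals at every age, against 15.8% of all probe sets. Among means of at least 5 the count was 39 of 111 (35.1% against 23.1%). The opposite, replicate 1 highest at every age, was found for 18 (11.4% against 12.2%). The labels do not say what a replicate number stands for, and its part in these values was not tested.

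kdm4b, a demethylase of silencing H3 marks, had 8.35, 9.39 and 9.05 at 3 dpf, 8.14, 9.15 and 9.36 at 4 dpf, and 7.71, 9.18 and 9.48 at 5 dpf, in the order of replicates 1, 2 and 3. The mean of replicate 1 minus that of the other arrays was -1.20, while the log2 fold change with age was 0.13. chd7, the remodeller mutated in CHARGE syndrome, had 6.38, 7.51 and 7.93 at 3 dpf, 7.00, 7.55 and 7.85 at 4 dpf, and 6.51, 7.35 and 7.93 at 5 dpf, a gap of -1.05 and a change with age of 0.01. smarcc1a and kdm7aa had gaps of -1.12 and -0.90. For these genes the difference between arrays of one age was larger than the difference between the means of the ages. Replicate 1 being lowest did not preclude a change with age in smarcad1a, which had a gap of -0.28 and a change with age of 1.94. In 18 of the 47 the 3 and 5 dpf arrays did not overlap. Over all probe sets they did not overlap for 13.6% with 3 dpf higher and 41.8% with 3 dpf lower. Of the 47 probe sets 24 had replicate 1 lower by 0.5 or more, and 4 of the 47 passed the 3 against 5 dpf test at any fold. Of the 93 in which replicate 1 was neither always lowest nor always highest, 21 passed. Over all probe sets 5.63% were higher and 5.7% lower at any fold. The 47 were chosen by an order within ages, and the spread within ages enters the test. These counts therefore cannot be set against each other.

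**Figure D5:**
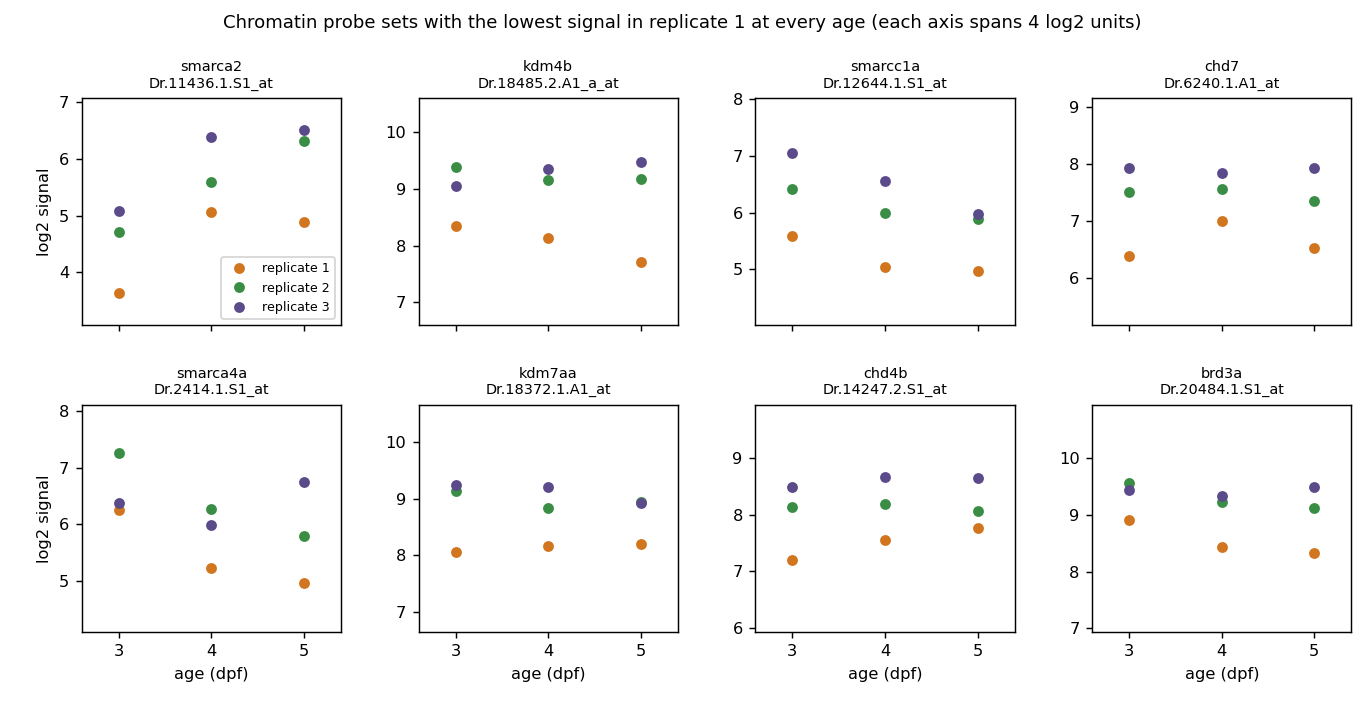
Log2 signal at 3, 4 and 5 dpf, coloured by replicate number, for the 8 chromatin genes with the largest average shortfall of replicate 1 where replicate 1 was lowest at every age and the mean reached 5. Each panel spans 4 log2 units. kdm4b, chd7 and kdm7aa have replicate 1 well below replicates 2 and 3 at each age and little change between ages.

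Chromatin genes outside the naming rule were read from a list of 89, such as the maintenance methyltransferase, arginine methyltransferases, NuRD and Polycomb subunits and histone chaperones, of which 49 were measured. At 2-fold 1 was higher at 3 dpf and 0 were lower, against 3.37% and 3.03% of all genes, and at any fold 4 were higher and 1 was lower, against 7.74% and 5.57%, so these counts lay near the background. Their median log2 fold change was 0.26, against -0.06 over all 8793 genes. These sets differ in signal, as a mean of at least 5 was reached by 39 of the 49 and by 5880 of the 8793. prmt6, an arginine methyltransferase of histone H3, fell from 5.74, 6.23 and 5.79 at 3 dpf through 5.15, 5.37 and 5.18 to 3.37, 4.31 and 4.07 at 5 dpf (2.01, standard error 0.28, adjusted p = 0.0159). The ages did not overlap. npm1a, a histone chaperone of the nucleolus (0.69, adjusted p = 0.0168), actl6a, the SWI/SNF actin-like subunit of progenitor cells (0.78, adjusted p = 0.0277), and atrx, a SNF2-family ATPase of heterochromatin (0.82, adjusted p = 0.0481), fell as well. sin3aa, a scaffold of HDAC complexes, rose (-0.56, adjusted p = 0.0112). Of these calls prmt6 ended without replicate 2 or 3 at 3 dpf (adjusted p up to 0.0666), sin3aa without replicate 2 at 3 dpf (adjusted p = 0.0508), npm1a and actl6a without any 1 array at 3 dpf or replicate 2 at 5 dpf (adjusted p up to 0.0683 and 0.106), and atrx without any 1 array but replicate 1 at 3 dpf (adjusted p up to 0.144). With signals under 4 set to 4 the calls of actl6a (adjusted p = 0.065) and atrx (adjusted p = 0.101) ended, and that of atrx also with quantile normalization (adjusted p = 0.052) or median centring (adjusted p = 0.0504). dnmt1, which copies DNA methylation after replication, had 0.04 (adjusted p = 0.914).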

How the data were processed

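The authors hybridised RNA from dissected eyes to the Affymetrix array after 2 rounds of labelling and deposited log2 signals made with GCRMA, 1 value per probe set. The GCRMA version, and whether all 9 arrays were normalized together, are not given in the sources used here, so age and processing cannot be told apart for the arrays at 4 dpf. The deposited log2 values were used without further normalization. Scanner files were not used here, so no background correction or slide block could be tried.

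After 115 control probe sets were left out, 15502 probe sets were fitted with limma 3.58.1 (lmFit and eBayes, R 4.3.3) with Benjamini-Hochberg adjustment. The comparison of 3 and 5 dpf used those 6 arrays, and comparisons with 4 dpf used all 9. A call needed an adjusted p under 0.05, with at least a 2-fold change where stated. Gene symbols came from the platform annotation, with 0 of the 158 changed by an update through Entrez identifiers, and 5 probe sets with several symbols were left out. Differences between probe sets of a gene, or between a and b copies, were tested as differences within each array. Scripts were tested on simulated data. With 3 arrays per age the number of arrays limits the precision. At most 114 probe sets had exactly equal deposited values on any 2 arrays, with no tolerance.

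Arrays at 3 and 4 dpf with the same replicate number deviated together from their age means (correlations 0.60, 0.50 and 0.44). In an alternative fit arrays of the same replicate number were taken as paired, at 5 dpf as well. Named are the genes past 2-fold in any comparison, the probe set of highest signal and the 2 largest calls of each family, members of differing pairs, and called genes of the wider list. Further genes are named as relatives of these or as counted examples, chosen after their values were seen. The members and gene lists were chosen with earlier results of these data known. Alternatives were quantile normalization, median centring, a floor of 4, a mean signal of at least 5, the replicate block, the spread of all 9 arrays or of 6, trend and robust eBayes, 1 probe set per gene, and leaving out each array.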

Additional observations from a re-analysis of the deposited data

How the results depend on the processing

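No called log2 fold change of a named gene between 3 and 5 dpf changed sign under an alternative. Among named probe sets that were not called, the dim ones of dnmt3ba (-0.10), ezh2 (-0.12) and setdb1a (-0.04) were 0.03, 0.03 and 0.07 under quantile normalization. Quantile normalization and median centring left every count within 1.5 times its value, though each ended single calls given with the results. With signals under 4 set to 4, chromatin probe sets at any fold between 3 and 5 dpf numbered 8 higher and 6 lower, those past 2-fold were 0 lower at 3 than at 4 dpf, 1 higher and 0 lower at 4 than at 5 dpf, unequal intervals numbered 2, differing probe set pairs 3 and differing copies 1. With a mean of at least 5, 5 were higher past 2-fold at 3 than at 5 dpf, 1 higher and 0 lower at 4 than at 5 dpf, and 0 had unequal intervals. With 1 probe set per gene, 1 was higher and 0 lower at 4 than at 5 dpf. With the spread of all 9 arrays, 5 were higher past 2-fold at 3 than at 5 dpf, 32 higher and 21 lower at any fold, and 6 copies differed. With trend and robust settings the 2-fold count higher was 5 and the any-fold count lower 17. With only the arrays at 3 and 4 dpf, 0 were lower at 3 dpf past 2-fold. The cause of these shifts was not tested. Shares of all probe sets or pairs in these settings are not given, so these counts cannot be set against the whole array.

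With the replicate number as a block, 5 chromatin probe sets were higher past 2-fold at 3 than at 5 dpf, 2 were lower at 3 than at 4 dpf, 3 had unequal intervals, 3 probe set pairs and 1 copy pair differed. The any-fold counts were 25 and 15. Shares of all probe sets or pairs with the block are not given, so these counts cannot be set against the whole array. Replicate 1 deviated together between 3 and 5 dpf (correlation 0.54) and between 4 and 5 dpf (0.72), while replicates 2 and 3 did not (0.01 and 0.04, and -0.07 and -0.03). The main fits had no block, and the block took the numbers as pairs at these ages too, in the alternative fit only. Of the 30 any-fold calls between 3 and 5 dpf the block ended 3, those of setdb1a (adjusted p = 0.0553), the second hmga1a probe set (adjusted p = 0.0647) and the dim smarca5 probe set (adjusted p = 0.0844).

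With each array left out in turn, the counts between 3 and 5 dpf ran from 1 to 6 higher and 2 to 6 lower past 2-fold, and from 2 to 15 higher and 2 to 8 lower at any fold. Past 2-fold they ran from 0 to 2 lower at 3 than at 4 dpf, with 0 higher, and from 1 to 2 higher at 4 than at 5 dpf, with 0 lower. Unequal intervals ran from 0 to 7, differing probe set pairs from 1 to 4 and differing copies from 0 to 3. Shares of all probe sets or pairs are not given for these settings either. smarcad1a, kmt2ca, smarca2 and dnmt3ba kept their calls in all 6 settings between 3 and 5 dpf. Chromatin probe sets with a mean under 5 had smaller changes between 3 and 5 dpf. Their median absolute log2 fold change was 0.16, against 0.49 for those with a mean of at least 5. The reason was not tested.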
